A study of Mus musculus with 6 samples.

Results

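The genes described here are 31 genes of cholesterol and fatty acid synthesis, with the factors that regulate them, followed through the first 2 days of neural conversion of mouse epiblast stem cells. They were chosen by name, as enzymes of the sterol and fatty acid pathways, SREBP factors and SREBP targets, with earlier results of these data known. Their probes were found through the RefSeq accession that the scanner files give. All 31 were found, with 45 probes, among 20260 named genes on the array, and the probe used for each was well above background on all 6 arrays. By role they comprise 6 enzymes of the mevalonate pathway, 11 enzymes of the squalene and sterol branch, 4 genes of regulation and transport, and 10 genes of fatty acid synthesis.

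Epiblast stem cells (EpiSCs) are pluripotent cells that resemble the epiblast of the early postimplantation embryo. The EpiSCs were of strain 129/Sv, and the labels name no transgene, deletion or added agent for any group. The group EpiSC was kept in the epiblastic maintenance condition, NPC1 spent 1 day and NPC2 spent 2 days in the neural plate condition, and each group held 2 cultures, A and B. Since the duplicates were grown from 1 seed culture, the p-values reflect only how far these samples spread, and that spread may be technical. The composition of the neural plate medium was not given.

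Cholesterol is built from acetyl-CoA by way of mevalonate, isoprenoid units, squalene and lanosterol. Fatty acids are built from the same acetyl-CoA through malonyl-CoA, then elongated and desaturated. Genes of both pathways are classic targets of the SREBP transcription factors, membrane proteins that SCAP escorts out of the endoplasmic reticulum when sterols are low and that INSIG proteins hold back when sterols are high. In the embryo, cholesterol is also attached to Hedgehog proteins, and inherited loss of the last enzymes of the pathway disturbs brain and face development.

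The sterol enzymes fell mainly on the second day of conversion. Of the 17 enzymes of the mevalonate pathway and sterol branch, 13 fell and 0 rose from NPC1 to NPC2, with a median log2 change of -0.52; Tm7sf2 was called higher in the authors' value table. From EpiSC to NPC1, 4 rose, 3 fell and 10 were not called. Of the 10 fatty acid genes 5 fell and 1 rose on the first day, and 3 fell and 3 rose on the second, where the count that rose was 0 without NPC1 B, NPC2 A or NPC2 B and 1 without EpiSC A, EpiSC B or NPC1 A. A gene was called where limma's adjusted p was under 0.05 over the 14766 genes tested. In bulk RNA, fewer cells of a type and less RNA per cell cannot be told apart.

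Change was widespread on these arrays, and the members' counts are to be read against it. From NPC1 to NPC2, 47.7% of all genes tested were called, 20.5% higher and 27.1% lower, and of the 31 members 3 were called higher and 19 lower. From EpiSC to NPC1, 50.3% of all genes were called, 21.5% higher and 28.8% lower, and of the members 5 were called higher and 8 lower. From EpiSC to NPC2, 69.1% were called, 28.2% higher and 40.9% lower, and of the members 2 were called higher and 23 lower. The members' median log2 change was -0.35 on the second day, against -0.05 over all genes, and -0.39 over both days, against -0.10. On the first day it was -0.08, against -0.05, and in the authors' value table it was 0.04, against 0.07. By size, 1 member was called and at least 0.5 lower on the log2 scale on the first day, against 10.3% of all genes, 12 on the second, against 13.4%, and 11 over both days, against 22.5%. In these comparisons 0 members were called and at least 0.5 higher, against 11.7%, 10.4% and 18.1%. The arrays of the groups did not overlap for 25, 25 and 30 members in that order, against 77.6%, 76% and 86.9% of all genes. Leaving out EpiSC A left 3 members called higher on the first day, and leaving out EpiSC B left 3 higher and 4 lower. The count called higher on the second day was 0 without NPC1 B, without NPC2 A or without NPC2 B, and 1 without EpiSC A, EpiSC B or NPC1 A. NPC1 shares its arrays between the first-day and second-day comparisons, and EpiSC and NPC2 are likewise each in 2 comparisons.

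**Figure D1:**
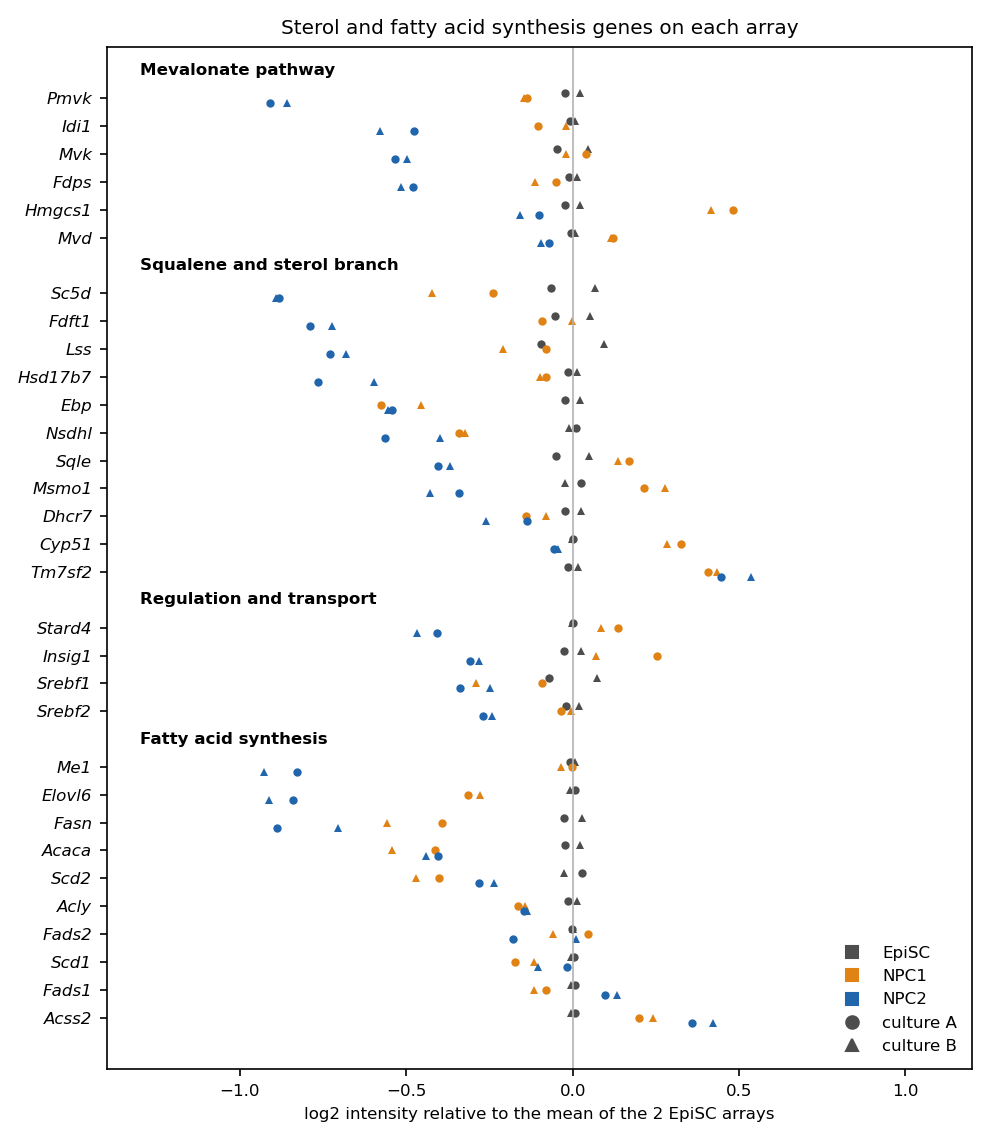
Each row is 1 gene and each point 1 array, placed by its log2 intensity relative to the mean of the 2 EpiSC arrays; colours are the groups, circles culture A and triangles culture B. The NPC2 arrays lie left of both other groups for most sterol enzymes, with Tm7sf2 to the right.

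In the mevalonate pathway all 6 enzymes fell on the second day, after a first day on which 1 of them rose. Hmgcs1 makes HMG-CoA, the precursor of mevalonate. As multiples of each array's 75th percentile of intensity, the scale of all array values below, its A and B arrays read 128.4 and 132.5 in EpiSC, 182.2 and 173.9 in NPC1, and 121.6 and 116.8 in NPC2. Both NPC1 arrays were above the other 4, and the groups did not overlap. Hmgcs1 rose by 0.45 ± 0.052 (log2 change ± SE, n = 2 arrays a group; limma adjusted p = 0.00253) and then changed by -0.58 ± 0.052 (adjusted p = 0.000999), a 1.49-fold fall. NPC2 against EpiSC was not called, at -0.13 ± 0.052 (adjusted p = 0.0761), and that value was 0.09 with quantile normalization and 0.10 in the value table.

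Pmvk, phosphomevalonate kinase, read 75.3 and 77.6 in EpiSC, 69.4 and 69.0 in NPC1, and 40.7 and 42.1 in NPC2. The NPC2 arrays were far below the other 4. Its change was -0.14 ± 0.046 on the first day (adjusted p = 0.055) and -0.74 ± 0.046 on the second (adjusted p = 0.000345), and NPC2 was 1.85-fold below EpiSC. Mvk, mevalonate kinase, read 39.2 and 41.8 in EpiSC, 41.6 and 39.9 in NPC1, and 28.0 and 28.7 in NPC2. EpiSC and NPC1 overlapped and NPC2 lay below both, with a second-day change of -0.52 ± 0.055 (adjusted p = 0.00167). Idi1, which interconverts the isoprenoid building blocks, read 30.8 and 31.1, then 28.8 and 30.5, then 22.2 and 20.7 in the same order. Its NPC2 arrays were again the lowest, with a second-day change of -0.47 ± 0.059 (adjusted p = 0.00304). Fdps, which joins isoprenoid units into farnesyl diphosphate, changed by -0.42 ± 0.048 on the second day (adjusted p = 0.00216). Mvd, the decarboxylase that acts after Pmvk, changed by -0.20 ± 0.042 (adjusted p = 0.0151). The call of Mvd was lost without NPC2 A, without NPC2 B, with quantile normalization and in the value table.

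In the squalene and sterol branch 7 of 11 enzymes fell on the second day and 0 rose. Fdft1, squalene synthase, read 20.0 and 21.5 in EpiSC, 19.5 and 20.7 in NPC1, and 12.0 and 12.6 in NPC2. Only the NPC2 arrays stood apart, with a second-day change of -0.71 ± 0.064 (adjusted p = 0.00102). That call was lost when the gene's 2 probes were averaged, at an adjusted p of 0.129. Sqle, the squalene epoxidase that is a rate-controlling step, read 55.1 and 59.0, then 64.1 and 62.7, then 43.1 and 44.2. Its NPC1 arrays were the highest and its NPC2 arrays the lowest, and it fell by 0.54 ± 0.054 on the second day (adjusted p = 0.00139). Lss closes squalene epoxide into lanosterol, and read 6.80 and 7.75, then 6.86 and 6.28, then 4.38 and 4.53. EpiSC and NPC1 overlapped, and the second-day change was -0.56 ± 0.085 (adjusted p = 0.00556).

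Cyp51 and Msmo1 act early on lanosterol, removing its methyl groups, and both rose and then fell. Cyp51 read 3.05 and 3.05 in EpiSC, 3.82 and 3.71 in NPC1, and 2.94 and 2.96 in NPC2. It rose by 0.30 ± 0.043 (adjusted p = 0.00455) and then changed by -0.35 ± 0.043 (adjusted p = 0.00272). Msmo1 read 75.5 and 73.1, then 86.1 and 90.0, then 58.7 and 55.2. The 3 groups did not overlap in either gene. Msmo1 rose by 0.24 ± 0.056 (adjusted p = 0.0197) and then changed by -0.63 ± 0.056 (adjusted p = 0.000964). Its first-day call was lost without EpiSC A, without EpiSC B, without NPC1 B and with median scaling.

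Later enzymes of the branch divided by day. Hsd17b7, a sterol ketoreductase, read 2.84 and 2.89 in EpiSC, 2.71 and 2.67 in NPC1, and 1.68 and 1.89 in NPC2, and changed by -0.59 ± 0.069 on the second day (adjusted p = 0.00226). Ebp, the sterol isomerase, read 36.0 and 37.2, then 24.6 and 26.7, then 25.1 and 24.9. Its fall was complete by NPC1, with a first-day change of -0.52 ± 0.058 (adjusted p = 0.00232) and a second-day change of -0.03 ± 0.058 (adjusted p = 0.667). Sc5d, the sterol desaturase, read 8.07 and 8.84, then 7.15 and 6.30, then 4.58 and 4.55, each group below the one before. It changed by -0.33 ± 0.083 on the first day (adjusted p = 0.0259) and by -0.56 ± 0.083 on the second (adjusted p = 0.00518), and NPC2 was 1.85-fold below EpiSC. The first-day call of Sc5d was lost without EpiSC B, NPC1 B, NPC2 A or NPC2 B. It was also lost with quantile normalization, in the value table, with no filter on dim probes and with a replicate block.

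Tm7sf2, a sterol reductase, was the 1 sterol enzyme called higher in NPC2 than in EpiSC, at 0.49 ± 0.052 (adjusted p = 0.000859), whereas 2 such enzymes were called with quantile normalization and 3 in the value table. It rose on the first day, by 0.42 ± 0.052 (adjusted p = 0.00302). Nsdhl, a sterol dehydrogenase, fell on the first day, by 0.33 ± 0.067 (adjusted p = 0.0135). That call was lost without EpiSC A, EpiSC B or NPC1 A, in the value table and with the mean of its probes. The 2 probes of Nsdhl had opposite signs on the first day. Dhcr7, the last reductase of the pathway, was called in neither daily step, and its change of -0.20 ± 0.062 from EpiSC to NPC2 (adjusted p = 0.0363) turned to 0.03 in the value table. That call was lost without EpiSC A, EpiSC B, NPC1 A, NPC1 B or NPC2 B. It was also lost with normexp background correction, quantile normalization, the value table, no filter on dim probes and a replicate block.

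**Figure D2:**
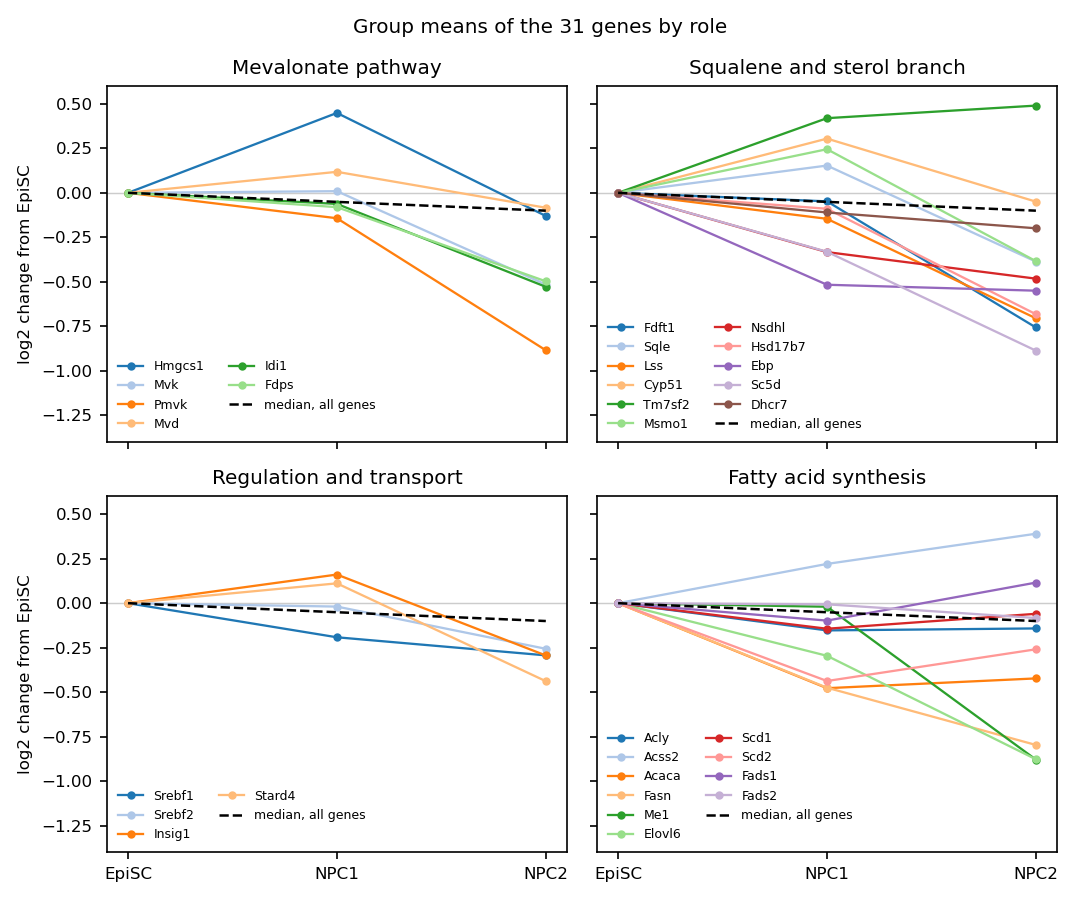
Group means of each gene as log2 change from EpiSC (vertical axis) in EpiSC, NPC1 and NPC2 (horizontal axis), 1 panel per role; the dashed line is the median of all 14766 genes. Hmgcs1, Cyp51 and Msmo1 peak in NPC1, and Pmvk and Sc5d end lowest among the sterol enzymes.

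The promoters of 6 of the 19 members called lower on the second day are shown as examples. Each is the 250 bases before the annotated start in RefSeq on build GRCm38.p6, read 5′ to 3′ on the gene's strand: chr13:119690101-119690350 and chr3:89454291-89454540 on the plus strand, and chr5:4104698-4104947, chr8:64733579-64733828, chr9:42264301-42264550 and chr11:120824548-120824797 on the minus strand. Capitals mark CCAAT, the box bound by NF-Y, in either orientation (ATTGG on the shown strand), and in Hmgcs1 also the sterol regulatory element; the Sp1 box and E-box counted below are not marked. Pmvk has 2 annotated starts, and the window of the other one, not shown, held none of the 4 motifs. All 6 windows shown hold CCAAT, whereas that of Elovl6, also called lower on the second day, held none of the 4 motifs.
Hmgcs1: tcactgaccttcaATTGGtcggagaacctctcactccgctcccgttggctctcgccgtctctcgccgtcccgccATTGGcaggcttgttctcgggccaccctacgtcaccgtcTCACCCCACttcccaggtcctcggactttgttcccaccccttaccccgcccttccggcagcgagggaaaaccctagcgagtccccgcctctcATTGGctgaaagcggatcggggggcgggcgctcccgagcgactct
Pmvk: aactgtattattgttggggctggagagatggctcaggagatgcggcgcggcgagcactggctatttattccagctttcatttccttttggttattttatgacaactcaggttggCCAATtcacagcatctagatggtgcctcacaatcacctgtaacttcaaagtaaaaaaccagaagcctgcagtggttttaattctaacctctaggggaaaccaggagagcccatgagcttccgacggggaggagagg
Cyp51: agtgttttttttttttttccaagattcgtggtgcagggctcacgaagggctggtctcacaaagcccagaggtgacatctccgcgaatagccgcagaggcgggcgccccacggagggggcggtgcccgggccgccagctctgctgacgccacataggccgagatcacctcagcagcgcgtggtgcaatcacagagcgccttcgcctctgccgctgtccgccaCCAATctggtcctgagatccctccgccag
Msmo1: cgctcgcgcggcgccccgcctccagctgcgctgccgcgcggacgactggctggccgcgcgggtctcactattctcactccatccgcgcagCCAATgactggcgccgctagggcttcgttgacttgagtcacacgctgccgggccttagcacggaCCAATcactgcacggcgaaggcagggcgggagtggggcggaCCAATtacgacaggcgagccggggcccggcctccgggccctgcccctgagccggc
Sc5d: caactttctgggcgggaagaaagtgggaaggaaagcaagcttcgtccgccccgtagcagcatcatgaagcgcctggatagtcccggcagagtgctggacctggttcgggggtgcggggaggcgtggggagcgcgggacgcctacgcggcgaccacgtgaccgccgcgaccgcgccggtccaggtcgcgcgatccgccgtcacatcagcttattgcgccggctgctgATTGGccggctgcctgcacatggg
Fasn: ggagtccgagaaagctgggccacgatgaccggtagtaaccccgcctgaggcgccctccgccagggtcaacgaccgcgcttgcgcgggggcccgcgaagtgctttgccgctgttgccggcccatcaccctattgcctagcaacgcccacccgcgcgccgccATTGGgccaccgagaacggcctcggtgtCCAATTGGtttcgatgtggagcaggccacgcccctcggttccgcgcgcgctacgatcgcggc

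Of the 31 members 24 had such a window. Fdps, Fdft1, Sqle, Stard4, Scd1, Scd2 and Fads1 had none. CCAAT on either strand was in the window of 20 of the 24 members, against 39.5% of 17492 protein-coding genes. GGGCGG, the Sp1 box, was likewise in 20 of 24, against 45.8%. TCACNCCAC, one form of the sterol regulatory element, was in 1 of 24, Hmgcs1, against 1.2%, and CACGTG, an E-box, was in 4 of 24, against 7.61%. The shares cover protein-coding genes whether or not they were above background on these arrays, whereas all the members were. A share among genes above background was not computed. In Fasn a CCAAT and an ATTGG overlap, and were counted as 2 matches. A gene with several windows was counted where any window held the motif, and a match is a description of letters.

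Among the regulators, the 4 genes were called in no direction on the first day, and 3 fell on the second. Srebf2, the SREBP factor most tied to sterol genes, read 3.44 and 3.54 in EpiSC, 3.40 and 3.48 in NPC1, and 2.89 and 2.95 in NPC2. EpiSC and NPC1 overlapped, and the second-day change was -0.24 ± 0.045 (adjusted p = 0.0113). That call was lost without NPC2 A and in the value table. Srebf1, the factor most tied to fatty acid genes, read 0.430 and 0.475, then 0.424 and 0.370, then 0.358 and 0.381. It was called in neither daily step, and its change over both days was -0.29 ± 0.093 (adjusted p = 0.0386). That call was lost without EpiSC A, EpiSC B, NPC2 A or NPC2 B. It was also lost in the value table, with no filter on dim probes and with a replicate block.

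Insig1, which retains SREBP precursors and is itself an SREBP target, read 1.63 and 1.68 in EpiSC, 1.97 and 1.74 in NPC1, and 1.34 and 1.36 in NPC2. NPC1 was highest and NPC2 lowest, without overlap. The first-day change was not called, at 0.16 ± 0.074 (adjusted p = 0.133), and the second-day change was -0.45 ± 0.074 (adjusted p = 0.00694). Stard4, a carrier of cholesterol between membranes, read 11.1 and 11.1, then 12.2 and 11.8, then 8.36 and 8.03. Its second-day change was -0.55 ± 0.048 (adjusted p = 0.000911), and its 2 probes had opposite signs on the first day.

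The fatty acid genes divided among themselves. Me1, malic enzyme, a source of NADPH for lipid synthesis, read 6.61 and 6.68 in EpiSC, 6.63 and 6.48 in NPC1, and 3.74 and 3.49 in NPC2. EpiSC and NPC1 overlapped, and the second-day change of -0.86 ± 0.053 (adjusted p = 0.000342) was the most negative of the 31 members in that comparison. Elovl6, an elongase of saturated fatty acids, read 24.5 and 24.3, then 19.6 and 20.1, then 13.6 and 13.0. It fell in both steps, by 0.30 ± 0.048 (adjusted p = 0.00717) and 0.58 ± 0.048 (adjusted p = 0.000804), and NPC2 was 1.84-fold below EpiSC. Fasn, fatty acid synthase, read 2.89 and 3.0, then 2.24 and 2.00, then 1.59 and 1.81, each group below the one before. Its changes were -0.47 ± 0.090 (adjusted p = 0.0113) and -0.32 ± 0.090 (adjusted p = 0.038). The first-day call was lost without EpiSC B, and the second-day call without EpiSC A, EpiSC B, NPC1 A or NPC2 A. The second-day call was also lost with quantile normalization, in the value table, with no filter on dim probes and with a replicate block.

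Acaca, the acetyl-CoA carboxylase that makes malonyl-CoA, read 31.4 and 32.4 in EpiSC, 24.0 and 21.9 in NPC1, and 24.1 and 23.5 in NPC2. Its fall of 0.48 ± 0.061 lay in the first day (adjusted p = 0.00339), and NPC1 and NPC2 overlapped. Scd2, a desaturase that makes monounsaturated fatty acids, read 153.3 and 147.7, then 113.9 and 108.5, then 123.8 and 127.7. NPC1 was the lowest group: Scd2 fell by 0.44 ± 0.052 (adjusted p = 0.00272) and then changed by 0.18 ± 0.052 (adjusted p = 0.0423). The second-day call was lost without any 1 of the 6 arrays, with no filter on dim probes and with a replicate block. Acss2, which makes acetyl-CoA from acetate, was 0.39 ± 0.048 higher in NPC2 than in EpiSC (adjusted p = 0.00147). Its first-day call, at 0.22 ± 0.048 (adjusted p = 0.0171), was lost without EpiSC A, EpiSC B or NPC1 B. That call was also lost with median scaling and with the mean of its probes. Its second-day call, at 0.17 ± 0.048 (adjusted p = 0.0386), was lost without any 1 of the 6 arrays. It was also lost with median scaling, normexp background correction, no filter on dim probes and a replicate block. Values for Acly, Scd1, Fads1 and Fads2 lay between -0.15 and 0.21 in the daily steps. Of these, Acly was called lower on the first day (adjusted p = 0.0359) and Fads1 higher on the second (adjusted p = 0.0152). The Acly call was lost without any 1 of the 6 arrays. It was also lost with quantile normalization, the value table, no filter on dim probes, the mean of its probes and a replicate block. The Fads1 call was lost without NPC1 B, NPC2 A or NPC2 B.

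**Figure D3:**
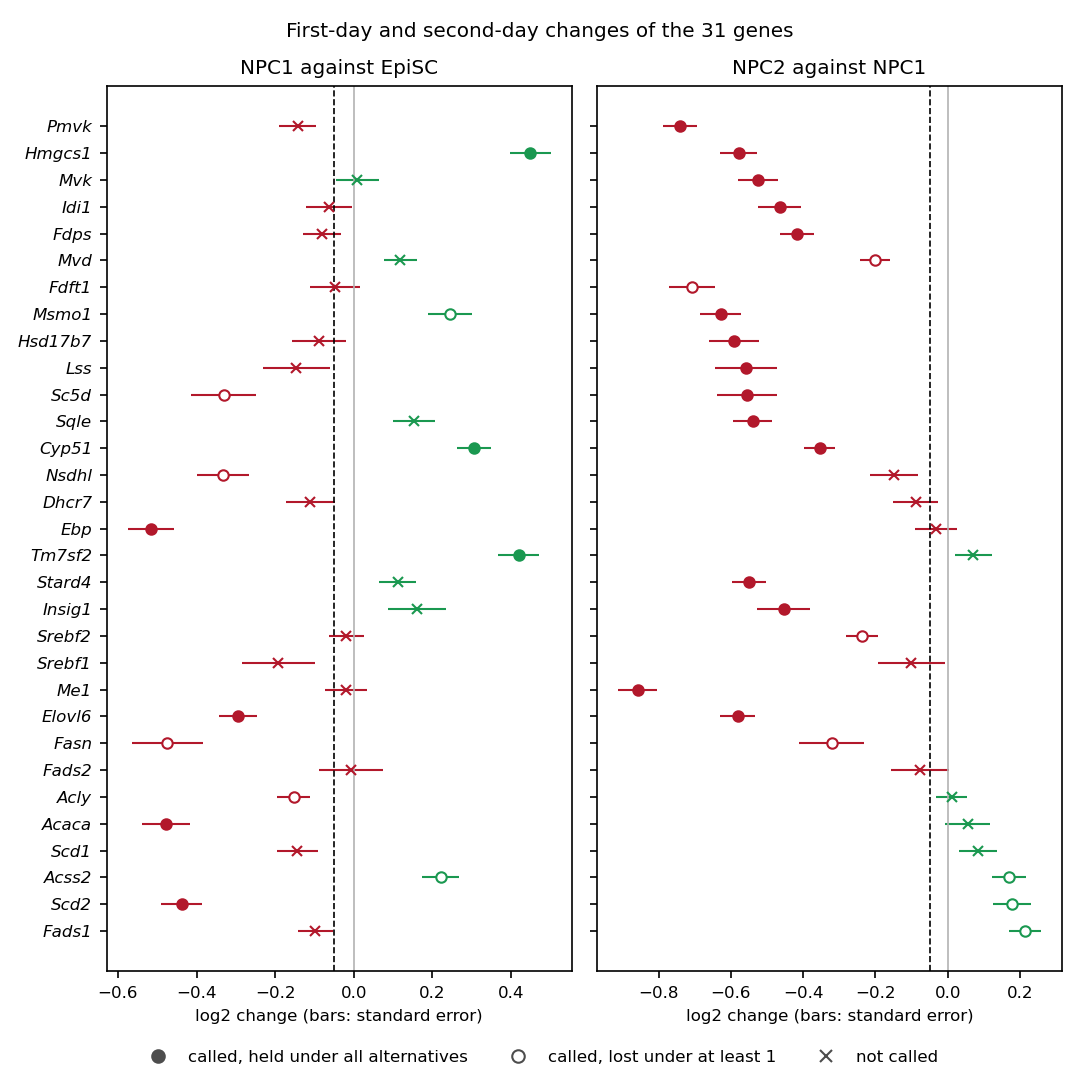
Log2 changes (horizontal axes) with standard errors for the first day (left) and the second day (right), 1 row per gene; filled circles are calls held under all 14 alternatives, open circles calls lost under at least 1, crosses genes not called, and the dashed line is the median of all genes. On the second day 15 genes have filled circles, all to the left of 0.

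Whether the second day differed from the first was tested as the second-day change minus the first-day change. By that test 29.5% of all genes were called, 13.7% higher and 15.8% lower, and of the members 4 were called higher and 15 lower. With a size of at least 0.5, 11 members were lower, against 13.1% of all genes, and 2 higher, against 9.38%. All 6 mevalonate enzymes were among the 15, but that call of Mvk was lost without NPC1 A or NPC2 A. The calls of Mvd, Idi1 and Fdps were lost without any 1 of the 6 arrays. They were also lost with median scaling, with no filter on dim probes and with a replicate block, and that of Fdps with quantile normalization. The most negative of the 31 was Hmgcs1, at -1.03 ± 0.090 (adjusted p = 0.00233), followed by Msmo1, at -0.87 ± 0.097 (adjusted p = 0.00424), and Me1, at -0.84 ± 0.093 (adjusted p = 0.00423). Scd2 differed in the other direction, at 0.62 ± 0.090 (adjusted p = 0.0092). Hmgcs1, Me1, Msmo1, Cyp51, Stard4, Pmvk, Sqle and Scd2 held under all 14 alternatives. The counts fell to between 8 and 10 lower and 1 and 2 higher when any 1 of the 6 arrays was left out.

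Scaling moved the first-day picture more than the second-day one. The median over all genes from EpiSC to NPC1 was -0.05 with the 75th percentile, -0.15 with median scaling, -0.01 with quantile normalization and 0.07 in the value table. Of all first-day calls, 57.3% were lower, against 71.3% with median scaling and 37.9% in the value table. From EpiSC to NPC2 the lower share was 59.2%, against 38.8% in the value table, and from NPC1 to NPC2 56.9%, against 41% there. The first-day median of the sterol enzymes was -0.06, and turned to 0.08 with quantile normalization and 0.06 in the value table. Their second-day median stayed between -0.52 and -0.38 over these scalings and normexp, with 12 or 13 of 17 called lower.

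**Figure D4:**
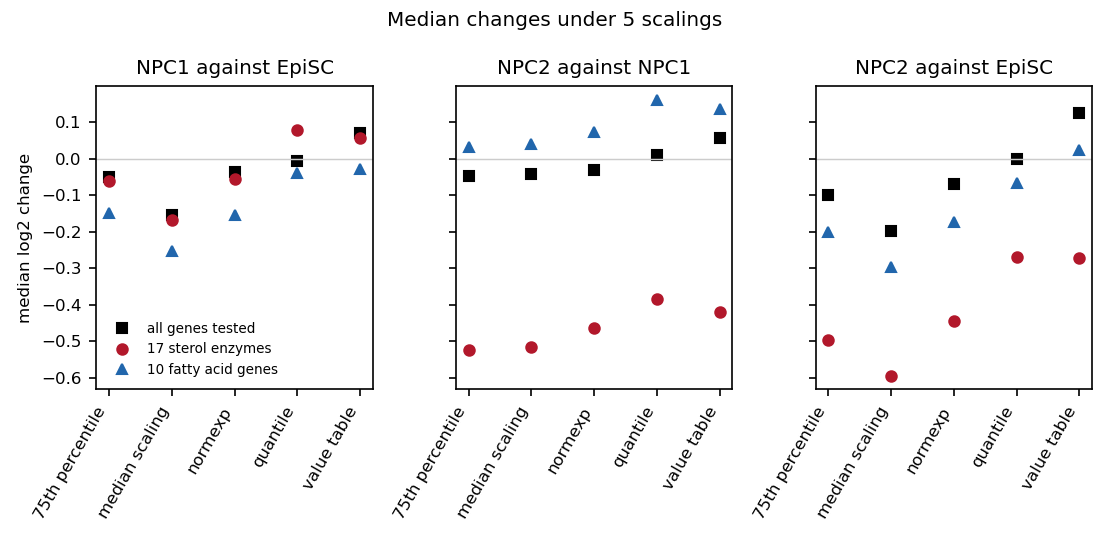
Median log2 change (vertical axis) of all genes tested, the 17 sterol enzymes and the 10 fatty acid genes under 5 scalings (horizontal axis), 1 panel per comparison. The sterol enzymes lie below all genes in both comparisons that hold NPC2; on the first day they lie on both sides of 0, and the fatty acid median is above 0 for NPC2 against EpiSC in the value table.

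Other genes of lipid metabolism were taken from 6 lists, whose counts from EpiSC to NPC2 stand against 28.2% called higher and 40.9% called lower over all genes. Of 6 other sterol enzymes 4 fell and 0 rose from EpiSC to NPC2. Soat1, which esterifies cholesterol, read 4.19 and 4.07 in EpiSC, 3.87 and 4.20 in NPC1, and 2.94 and 2.88 in NPC2, and changed by -0.51 ± 0.058 (adjusted p = 0.00113). Its NPC2 arrays were the lowest, and EpiSC and NPC1 overlapped. Of 4 genes of SREBP processing, Scap rose by 0.42 ± 0.049 (adjusted p = 0.0012) and Insig2 fell by 0.30 ± 0.062 (adjusted p = 0.00995). The Insig2 call was lost without NPC2 B, with quantile normalization and in the value table. Of 9 genes of sterol uptake and efflux 2 rose and 5 fell. Vldlr, a lipoprotein receptor, rose by 1.92 ± 0.045 (adjusted p = 1.24e-05) and Lrp8, a related receptor, changed by -1.19 ± 0.087 (adjusted p = 0.000252). Abca1, a cholesterol exporter, was among the 2 that rose, but was not well above background in EpiSC or NPC1 and passed the filter through NPC2 alone. Taking the lowest signal well above background as the EpiSC level, it was 1.71-fold higher in NPC2. That size depends on the processing, since the log2 change was 0.37 with normexp.

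Of 16 other genes of fatty acid synthesis 2 rose and 12 fell from EpiSC to NPC2, again against 28.2% and 40.9% of all genes, the shares for each list of this paragraph. Elovl2, an elongase of polyunsaturated fatty acids, rose by 1.79 ± 0.060 (adjusted p = 2.62e-05). Acacb, the second acetyl-CoA carboxylase, changed by -1.41 ± 0.047 (adjusted p = 2.57e-05), and Mlxipl, a carbohydrate-responsive transcription factor, by -0.96 ± 0.069 (adjusted p = 0.000235). Of 7 glycerolipid and lipid droplet genes 1 rose and 5 fell, with Agpat2 at -1.63 ± 0.072 (adjusted p = 5.35e-05), Lpin1 at -1.08 ± 0.090 (adjusted p = 0.00039) and Plin2 at -0.63 ± 0.070 (adjusted p = 0.000987). Of 14 tested genes of fatty acid oxidation 2 rose and 8 fell. Cpt1a, which brings fatty acids into mitochondria, fell by 3.30 ± 0.042 (adjusted p = 5.94e-06), a change that was -1.46 with normexp. Hadhb fell by 1.58 ± 0.087 (adjusted p = 0.000106) and Acadl fell by 1.35 ± 0.060 (adjusted p = 5.65e-05).

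The labels were checked against marker genes. All 8 epiblast markers were above background in EpiSC, and by NPC2 5 fell, Pou5f1 by 2.66, and 3 rose, Nanog by 0.81, Sox2 by 1.28 and Otx2 by 0.77. Their summed level ran from 342 to 353 in EpiSC, 252 to 261 in NPC1 and 157 to 158 in NPC2, and Dnmt3b held most of each. Of the neural plate markers, which share Sox2 with the epiblast list, 7 of 8 rose by NPC2, Sox1 by 5.72, while Nes changed by -2.04. Pax6 and Six3, among the 7, passed the background filter through NPC2 alone, so their calls are no check of the labels. The sums of the 8 ran from 30.1 to 30.9 in EpiSC, 31.8 to 34.4 in NPC1 and 23.1 to 23.3 in NPC2. Nes held most of the sum in EpiSC and NPC1. The summed level of 6 primitive streak markers ran from 8.09 to 8.52 in EpiSC, 1.41 to 1.46 in NPC1 and 0.711 to 0.772 in NPC2. T and Eomes held most of the sum in EpiSC and NPC1. By NPC2 5 of these 6 were called lower, and Tbx6 was called higher, by 0.495. Mixl1, among the 5, passed the background filter through EpiSC alone. From NPC1 to NPC2, 2 of the 6 were called higher and 2 lower. The summed level of 7 endoderm markers ran from 5.31 to 5.52, 0.401 to 0.455 and 1.43 to 1.53, with Alb and Ttr above background on no array. Foxa2 held most of each endoderm sum. Of the 4 endoderm markers tested, 1 was called higher and 2 lower from NPC1 to NPC2, and all 4 were lower in NPC2 than in EpiSC. Afp, among these 4, passed the background filter through EpiSC alone. The sums of 5 neuronal markers ran from 2.89 to 3.02, 9.71 to 10.9 and 6.43 to 6.75, and Tubb3 held most of each. By NPC2 2 of these 5 were called higher, Tubb3 and Map2, and 2 lower, Dcx and Neurod1. The sums of 8 fibroblast markers ran from 7.14 to 7.54, 9.32 to 9.71 and 11.6 to 12.2, with Lum above background on no array. By NPC2 Col1a2, Thy1 and Pdgfra were called higher, Twist2 and Dcn lower, and Col1a1 and Col3a1 were not called. Pdgfra passed the background filter through NPC2 alone. The sums of 5 glial markers ran from 2.71 to 2.88, 4.65 to 4.84 and 8.23 to 8.54, and those of 4 adipocyte markers from 2.20 to 2.26, 2.96 to 3.21 and 3.07 to 3.24, with Olig2 and Adipoq above background on no array. Lpl held most of the adipocyte sum, and Fabp4 was called lower and was not well above background in NPC2. Their part in the results was not tested. Between 58.2% and 61.1% of spots were well above background on each array, and 0 were saturated.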

How the data were processed

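Total RNA of 6 cultures, 2 each of EpiSC, NPC1 and NPC2, was measured on 6 Agilent 1-colour arrays, all on 1 slide. Per the file headers, the authors read the scans with Agilent Feature Extraction 10.10.1.1 (protocol GE1_1010_Sep10), which gives each spot a background-subtracted processed intensity on a linear scale. No normalization between arrays was applied to these deposited intensities. A value table from the authors equals that intensity times 1 constant per array, and how the constant was set is not stated.

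Control and outlier spots were left out, log2 intensities were set against the array's 75th percentile, and spots of a probe were averaged. Names came from RefSeq accessions through a GRCm38.p6 gene table used for names alone. A gene was represented by its brightest probe among the probes that passed the well-above-background flag on both duplicates of 1 or more groups, which left 14766 genes. Differences were tested two-sided in 1 fit of 3 groups with limma 3.58.1 in R 4.3.3 (lmFit, eBayes), Benjamini-Hochberg adjusted over all genes, at a threshold of 0.05; the error given is the standard error. The limma code was tested on simulated data. All 31 members are named; per-array values are given for those called with a log2 change of at least 0.5 in size in any comparison and for Srebf1, Srebf2, Insig1, Fasn and Hmgcs1, and of each other list the 3 called genes with the largest change from EpiSC to NPC2. Some genes that this rule takes are not reported here. The members and lists were chosen with earlier results of these data known. Promoter windows came from a RefSeq table of build GRCm38.p6. Duplicates correlated at 0.9971 to 0.9976, and 2 arrays a group limit the precision. Alternatives were median scaling, normexp with an offset of 50 on the median signal, quantile normalization, the value table, 2 other filters, the mean of a gene's probes, a replicate block and leaving out each array. The slide could not be a block, since all arrays share it.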

Additional observations from a re-analysis of the deposited data

How the results depend on the processing

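Each count of calls and 116 single-gene values were recomputed under 14 alternatives: of the single-gene comparisons 1388 kept direction and side of the threshold, 188 lost the call, 26 gained one and 21 changed sign. Members called from EpiSC to NPC1 numbered 3 higher and 14 lower with median scaling (6 sterol enzymes lower), 8 higher with quantile normalization, and 9 higher and 5 lower in the value table (1 sterol enzyme lower). From EpiSC to NPC2, 4 members were higher with quantile normalization and 6 in the value table. From NPC1 to NPC2, 5 were higher under both of these and 1 with no filter on dim probes. For the second-day minus first-day change, no filter left 2871 genes called, with 1 member higher and 9 lower. With a replicate block, 1 member was called higher from NPC1 to NPC2 and 9 members lower for the second-day minus first-day change. The deviations of same-lettered arrays correlated at 0.009, 0.006 and -0.044, and the letters were not treated as pairs. The labels do not say whether a letter marks a shared batch, and a correlation over all genes cannot settle it.

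Of the changes of sign, 4 were calls in the other direction, all higher in NPC2 than in EpiSC: Mvd with quantile normalization and in the value table, and Cyp51 and Scd1 in the value table. From EpiSC to NPC1 the value table gave Fdps 0.040, Dhcr7 0.010, Srebf2 0.10 and Fads1 0.023, quantile normalization gave Srebf2 0.049, leaving out 1 array gave Srebf2 -0.039 to 0.000836, and the mean of a gene's probes gave Stard4 -0.071. From EpiSC to NPC2, quantile normalization and the value table gave Hmgcs1 0.092 and 0.096, Mvd 0.13 and 0.14, Cyp51 0.072 and 0.18, Acly 0.11 and 0.084, and Scd1 0.13 and 0.17, and the value table gave Dhcr7 0.026. From NPC1 to NPC2, the mean of a gene's probes gave Tm7sf2 -0.00411 and Acly -0.023, and the value table gave Srebf1 0.0036. The value table multiplies each array by 1 constant, so it shifts all genes of a comparison alike. From EpiSC to NPC2 the median over all genes was -0.10, and 0.125 in the value table. The cause of the other changes of sign was not tested.

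Leaving out 1 array at a time gave 4888 to 6702 genes called from EpiSC to NPC1, with 3 to 5 members higher, 4 to 6 lower and 1 to 2 sterol enzymes lower. From NPC1 to NPC2 it gave 0 to 1 members higher. For the second-day minus first-day change it gave 2460 to 3179 genes, with 1 to 2 members higher and 8 to 10 lower. The lone array left in a group is assumed to vary like the others. With 2 arrays a group and 3 residual degrees of freedom, small changes are not resolved: the median standard error was 0.0677 for a daily change.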
